A study of Mus musculus with 8 samples.

Results

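Transcript levels in 2 brain regions of male mice, the cerebral cortex and the hippocampus, were compared between animals given the insecticide clothianidin and vehicle controls, and the genes described are those that lay the same way in both brain regions. All 8 arrays of the series entered the comparison, 4 from exposed and 4 from control tissue, with tissue as a covariate. The mice were 12 weeks old and received clothianidin at 50 mg/kg/day, a dose the submitters give as the no observed adverse effect level, or vehicle with 1% DMSO, for 2 weeks. Each tissue had 2 control arrays, numbered 1 and 6 in the labels, and 2 exposed arrays, numbered 3 and 6, and an array is called here by tissue, arm and number. The sources used here do not give the strain, the route of dosing, or whether clothianidin was dissolved in the same vehicle. The labels do not say that the arrays came from separate animals, nor that arrays with the same arm and number in the 2 tissues came from the same mouse. The p-values thus reflect the spread among these samples alone, and that spread may be technical.

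Neonicotinoids such as clothianidin are agonists of nicotinic acetylcholine receptors, ion channels built from subunits whose genes carry the Chrn prefix. They bind the receptors of insects more tightly than those of mammals. In the mammalian cortex and hippocampus these receptors admit sodium and calcium and modulate the release of glutamate, GABA and acetylcholine, and enzymes that split acetylcholine end its action. The comparison across both tissues asks which transcripts differed with exposure in the same direction in these 2 regions of different cell makeup.

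The values are taken as log2 levels per probe set. A difference is the exposed minus the control mean, with tissue taken into account and its standard error (SE). Probe sets in the lowest 33.3% by mean were left out, at a limit of 3.937, which left 14804 of 22206. Array medians over all probe sets lay between 5.21 and 5.40, and arrays of the same group correlated at r of 0.9867 to 0.9915. The tissue labels fitted their markers: 17 of 20 cortical neuron markers had the higher mean over all arrays of a tissue in cortex and 18 of 18 hippocampal markers in hippocampus. Cux2, a transcription factor of upper cortical layers, measured 8.86 to 9.23 in the cortex arrays and 5.05 to 6.10 in the hippocampus arrays. Prox1, a factor of dentate granule cells, measured 6.44 to 6.87 in cortex and 11.34 to 11.96 in hippocampus.

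No probe set passed the adjusted threshold of 0.05 in the fit over both tissues (limma, 0 of 14804, a background of 0%). The smallest adjusted p was 0.059, reached by Leng8 and by the unnamed probe set TC0200002427.mm.2. At an unadjusted p under 0.05 there were 651 higher (4.4%) and 725 lower (4.9%) probe sets, 1376 in all. None of the genes below passed in that fit. When the filter was raised to the lowest 50%, Leng8 and TC0200002427.mm.2 had an adjusted p of 0.044 each (0.044 to 0.88 for Leng8 over all alternatives).

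The arms were called separated in a tissue when both exposed arrays lay above, or both below, both control arrays. In both tissues the same way, 617 probe sets were higher in exposed arrays (4.17%) and 617 were lower (4.17%), 1234 together. A further 598 (4.04%) were separated in opposite ways, 253 of them higher in exposed cortex and lower in exposed hippocampus and 345 the reverse. In cortex alone 2537 were separated upwards (17.1%) and 3164 downwards (21.4%), and in hippocampus 2479 (16.7%) and 2067 (14%). Over all 14804 probe sets, 8520 (57.6%) had differences of the same sign in the 2 tissues. The correlation of the 2 tissues' differences across probe sets was r = 0.21, which is across genes of the same 8 arrays and carries no p. Probe sets with an unadjusted p under 0.05 in both tissues numbered 107 with the same sign and 14 with opposite signs. The differences of the 1234 were small, with a median absolute size of 0.45 against 0.18 for all probe sets, and their median levels were 8.60 for the higher and 8.61 for the lower ones against 7.46. At least a 1.5-fold difference was seen for 146 higher and 165 lower of them, and at least 2-fold for 7 and 14.

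**Figure D1:**
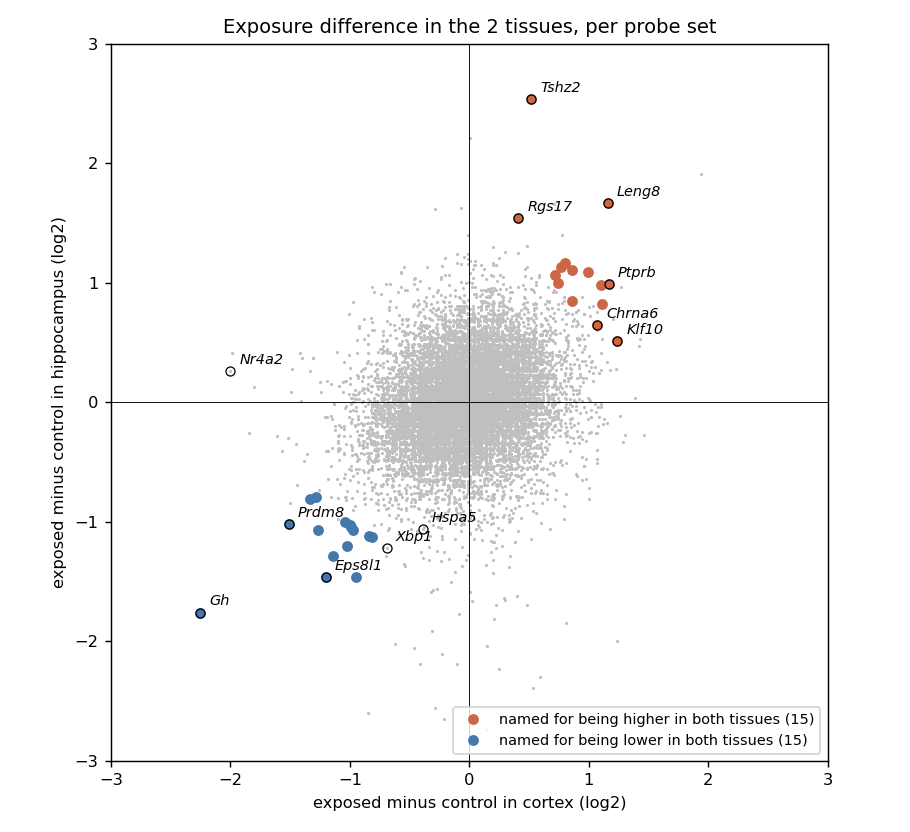
Exposed minus control differences per probe set (log2), cortex on the horizontal and hippocampus on the vertical axis, with the 15 genes named for being higher in both tissues in orange and the 15 named for being lower in blue. The grey cloud of 14804 probe sets, 7 of which lie outside the axes, is tilted only weakly (r = 0.21), and Tshz2 and Nr4a2 lie far from the diagonal.

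The agreement in sign between the tissues moved with single arrays. Without hippocampus control 1, 51.2% of probe sets had the same sign (r = 0.04), and 1973 were separated the same way against 1776 in opposite ways. The share was 53.5% without hippocampus exposed 6 (r = 0.10), 54.6% without cortex exposed 6 (r = 0.13) and 59.8% without hippocampus control 6 (r = 0.27). Leaving out an array raises both counts of separated probe sets by construction, since fewer values must be kept apart, and their ratio can move for the same reason. Without cortex control 1 that ratio was 1.73 against 2.06 with all arrays, while r was 0.21 in each. Hippocampus control 1 stood apart in choroid plexus genes, the epithelium that makes cerebrospinal fluid. Ttr, the transthyretin gene of that epithelium, measured 19.51 in hippocampus control 1 and 15.41 in cortex control 6, against 4.17 to 7.76 in the other 6 arrays. Over the 11 choroid plexus markers tested the mean log2 level was 10.90 in hippocampus control 1, 6.15 in cortex control 6 and 4.18 to 5.20 elsewhere. All 11 had a negative difference over both tissues (median -1.66), but only 7 had the same sign in each. The median was -0.43 in cortex and -2.74 in hippocampus. Over both tissues it was -0.14 without hippocampus control 1 and 0.05 without both Ttr-high arrays. Without those 2 arrays 3328 probe sets were separated the same way and 3269 in opposite ways, with 50.4% of the same sign (r = 0.02), and 30 against 35 had a p under 0.05 in both tissues. The part of choroid plexus tissue in the 2 control arrays in these counts was not tested. In bulk tissue, fewer cells of a type and less RNA per cell cannot be told apart.

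**Figure D2:**
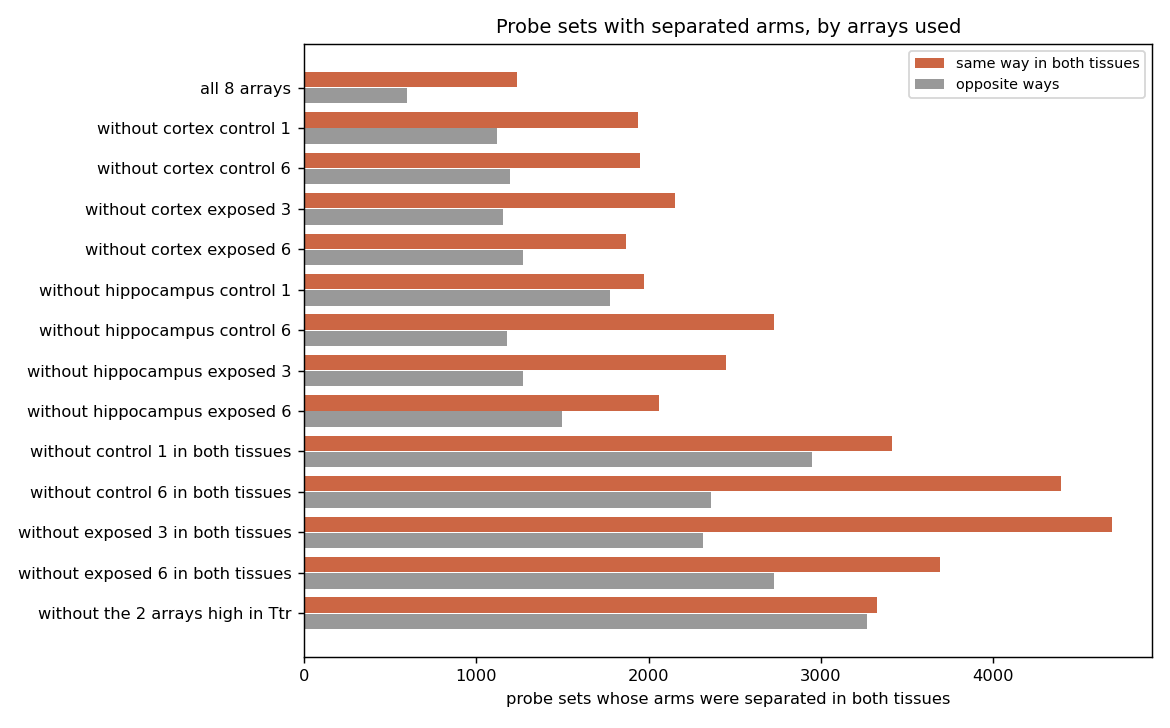
Number of probe sets whose arms were separated in both tissues, the same way (orange) or in opposite ways (grey), with all 8 arrays and with arrays left out. With all arrays the counts were 1234 and 598, and without the 2 arrays high in Ttr they were 3328 and 3269.

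Separation in both tissues together with an unadjusted p under 0.01 and at least a 1.5-fold difference was met by 110 higher (0.743%) and 128 lower (0.865%) probe sets. The 15 with a gene symbol and the largest difference in each direction are described first. The 15 higher genes differed by 0.86 to 1.52 (SE 0.19 to 0.35, limma adjusted p 0.059 to 0.36), and 9 of them had a higher control mean in cortex than in hippocampus. Each kept its sign when any single array was left out, which separation in both tissues fixes in advance. None had a group mean under the limit. These values chose the genes, so the separation of their arms is a description.

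Leng8, a nuclear protein gene related to mRNA export factors, had the smallest p of the named genes. It measured 6.78 and 6.95 in control cortex, 8.0 and 8.04 in exposed cortex, 6.36 and 6.51 in control hippocampus, and 7.84 and 8.37 in exposed hippocampus. All 4 exposed arrays lay above all 4 control arrays, whichever the tissue. The difference was 1.41 (SE 0.20, 95% interval 0.98 to 1.85, limma adjusted p = 0.059), a 2.66-fold higher level, and 1.25 to 1.5 without single arrays. Tshz2, a teashirt zinc finger factor gene of cortical neurons, differed by 1.52 (SE 0.35, adjusted p = 0.29), but its sizes in the tissues were unequal. It measured 11.67 and 12.18 in control and 12.43 and 12.45 in exposed cortex, against 8.33 and 8.24 in control and 11.29 and 10.35 in exposed hippocampus. The hippocampal gap was thus 2.54 and the cortical gap 0.52, and in hippocampus alone Tshz2 was 1 of 14804 probe sets called (0.00675%, limma adjusted p = 0.045). In hippocampus 0 probe sets were called with quantile normalization, without the trend, with array weights, without the 2 Ttr-high arrays, or without any array other than hippocampus control 6 (56 calls) and exposed 6 (2 calls).

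The genes with the next largest differences had more even sizes. Ptprb, a receptor phosphatase gene of vascular endothelium, measured 6.44 and 6.12 in control and 7.39 and 7.51 in exposed cortex, and 6.30 and 6.10 in control and 7.08 and 7.30 in exposed hippocampus. Every exposed array was above every control array, with differences of 1.17 in cortex and 0.99 in hippocampus (over both 1.08, SE 0.19, adjusted p = 0.19). Phf20l1, a chromatin reader gene, differed by 1.10 and 0.98, and Hecw2, a ubiquitin ligase gene, by 0.99 and 1.09. Rmdn1, a regulator of microtubule dynamics, differed by 0.86 and 1.11, and Atg7, which encodes an activating enzyme of autophagy, by 0.77 and 1.13. Fibronectin, Fn1, differed by 0.72 and 1.07, and its cortical separation was narrow, with 7.81 in control 6 against 7.85 in exposed 6.

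The other higher genes encode a receptor subunit, a peptide and regulators of signalling, transcription and translation. Gabrg1, the gamma-1 subunit of the GABA-A receptor, measured 9.0 and 8.76 in control and 10.24 and 9.74 in exposed cortex, and 9.16 and 9.07 in control and 10.16 and 9.72 in exposed hippocampus. Its levels were alike in the tissues and higher in all 4 exposed arrays (0.97, SE 0.19, adjusted p = 0.22). Vip, the vasoactive intestinal peptide gene of a class of interneurons, differed by 0.80 in cortex and 1.17 in hippocampus. Rgs17, which shortens G protein signals, differed by 0.41 and 1.54, and in cortex exposed arrays at 9.97 and 9.99 lay just above control 6 at 9.91. Klf10, a Kruppel-like factor gene induced by growth factors, had the opposite imbalance, with 1.24 in cortex and 0.51 in hippocampus. Rps19, a small ribosomal subunit gene, measured 8.41 and 8.47 in the control 1 arrays and 9.18 and 9.66 in the control 6 arrays, against 9.59 to 10.01 in the exposed arrays. Its difference of 0.86 (SE 0.25) was 0.62 without hippocampus control 1, and near-identical ribosomal pseudogenes make its probe set uncertain.

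**Figure D3:**
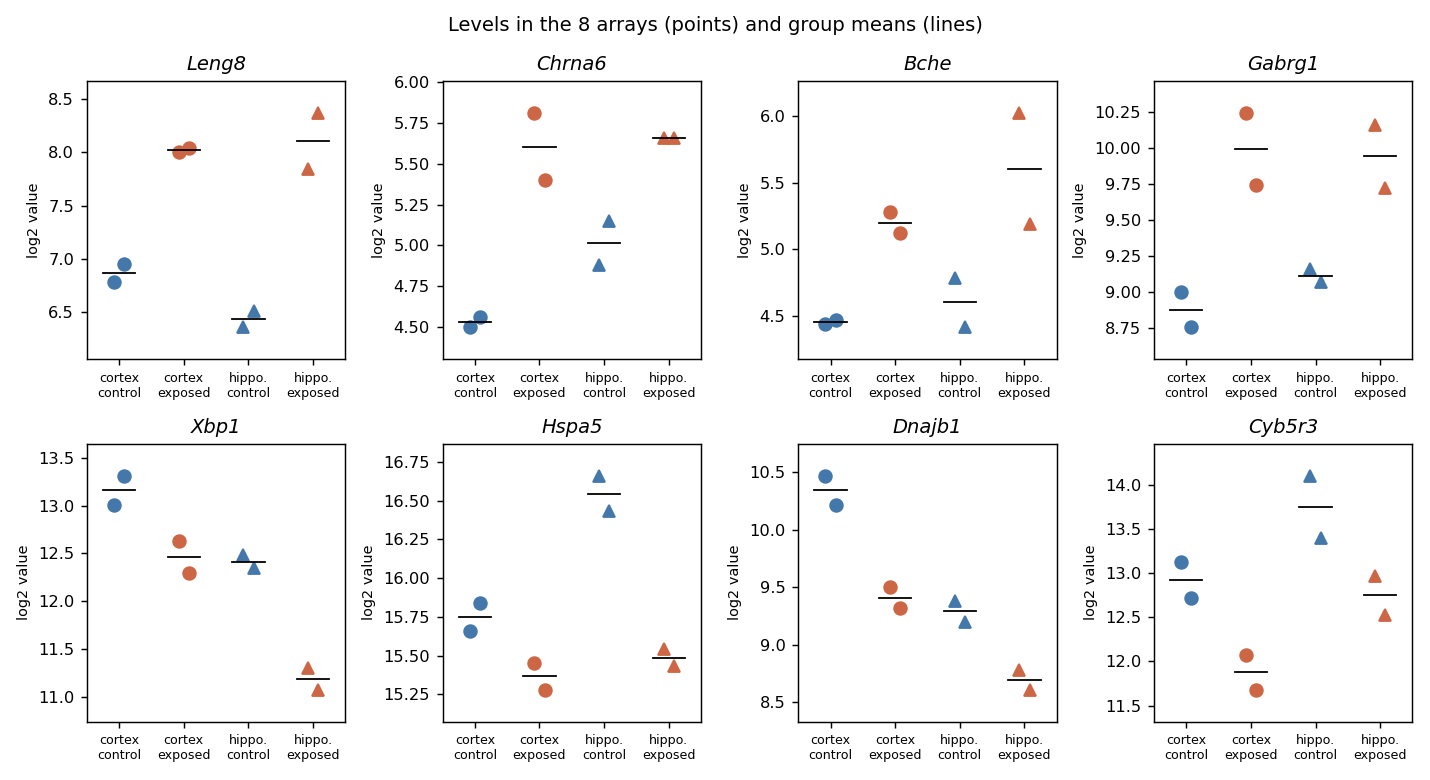
Log2 values of 8 genes in the 8 arrays, with control arrays in blue and exposed arrays in orange, circles for cortex and triangles for hippocampus, and a line at each group mean. In each panel both exposed arrays lie on the same side of both control arrays in each tissue, for example 8.0 and 8.04 against 6.78 and 6.95 for Leng8 in cortex.

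The 15 lower genes differed by -2.01 to -0.97 (SE 0.19 to 0.36, limma adjusted p 0.19 to 0.33) and kept their sign without any single array, likewise fixed in advance. Only 2 of them had a higher control mean in cortex than in hippocampus. In 12 of the 15 no group mean was under the limit, and the exceptions were Gh, Eps8l1 and Vmn2r31. In each of these exceptions both exposed means were under it. They passed the filter only through their control arrays, so their p-values are no independent support. Gh, the growth hormone gene, measured 5.02 and 6.45 in control cortex and 4.42 and 6.00 in control hippocampus, with the higher value in control 6 of each tissue. The 4 exposed arrays measured 3.36 to 3.53, under the limit and thus not shown to be above background. The difference was -2.01 (SE 0.36, limma adjusted p = 0.19), and without hippocampus control 1 it was -2.38. Of the other pituitary hormone genes tested, Tshb differed by -0.50 and Fshb by -0.02, and the part of pituitary or other tissue was not tested. Eps8l1, a gene of the actin regulator family of Eps8, measured 4.85 to 5.22 in the controls and 3.13 to 4.03 in the exposed arrays. Vmn2r31 belongs to a large family of near-identical vomeronasal receptor genes, so its difference of -0.98 is uncertain.

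Cyb5r3 and Prdm8 were well expressed among the lower genes. Cyb5r3, the NADH-dependent cytochrome b5 reductase of lipid and haem metabolism, measured 13.12 and 12.72 in control and 12.07 and 11.68 in exposed cortex, and 14.10 and 13.40 in control and 12.97 and 12.53 in exposed hippocampus. Its differences were -1.04 and -1.0 in the 2 tissues (over both -1.02, SE 0.19, adjusted p = 0.21). Prdm8, a PR domain transcriptional regulator of neurons, measured 11.52 and 10.16 in control and 9.70 and 8.95 in exposed cortex, and 13.97 and 13.28 in control and 12.83 and 12.37 in exposed hippocampus. In both genes control 1 was the higher control and exposed 6 the lower exposed array in each tissue. The same order held in both tissues for Vps33b, a vesicle tethering gene (-1.17, SE 0.28), Mrpl34, a mitochondrial ribosomal gene (-1.07, SE 0.25), and Acss1, a mitochondrial acetyl-CoA synthetase gene (-1.03, SE 0.23).

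The remaining lower genes had diverse roles. Ccdc3, which encodes a secreted protein, measured 6.37 and 6.03 in control and 5.53 and 4.60 in exposed cortex, and 7.92 and 7.73 in control and 6.71 and 6.35 in exposed hippocampus. Slc18b1, a vesicular polyamine transporter gene, differed by -0.99 in cortex and -1.04 in hippocampus, and Scnm1, a splicing factor gene, by -0.81 and -1.13. Zfp521, a zinc finger factor gene, differed by -0.97 and -1.07, and Ak8, an adenylate kinase gene, by -1.0 and -1.03. Cabcoco1 and Klhl26 differed by -1.20 and -1.11 over both tissues, and each by -0.83 without hippocampus control 1, where they measured 9.23 and 9.59.

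**Figure D4:**
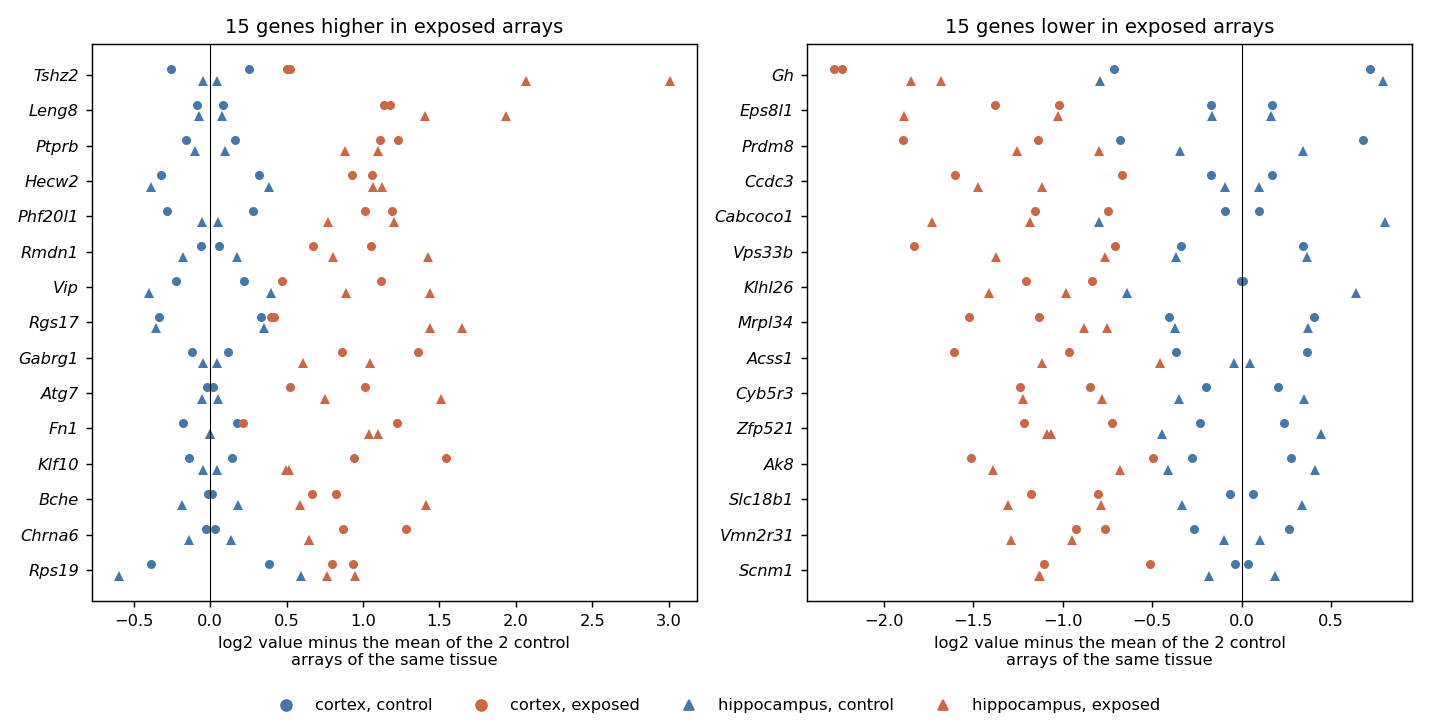
Log2 value of each array minus the mean of the 2 control arrays of its tissue, for the 15 higher and the 15 lower genes. Control arrays (blue) surround 0 and exposed arrays (orange) lie to the right in the left panel and to the left in the right panel, with Fn1 and Rgs17 in cortex among those with a narrow gap.

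Genes of endoplasmic reticulum chaperones and the unfolded protein response, which serve the folding of secreted and membrane proteins, were also examined. Xbp1, a transcription factor of the unfolded protein response, measured 13.01 and 13.31 in control and 12.63 and 12.30 in exposed cortex, and 12.48 and 12.35 in control and 11.31 and 11.08 in exposed hippocampus. Both exposed arrays were below both controls in each tissue, with the wider gap in hippocampus (over both -0.96, SE 0.17, adjusted p = 0.19). Hspa5, the main luminal chaperone (BiP), measured 15.66 and 15.84 in control and 15.45 and 15.28 in exposed cortex, and 16.66 and 16.43 in control and 15.54 and 15.43 in exposed hippocampus. The arms did not overlap in either tissue, and the difference was -0.72 (SE 0.16, adjusted p = 0.29). Pdia6, a disulfide isomerase, differed by -0.68 (SE 0.24), but its hippocampal arms overlapped, with 11.14 in control 6 and 11.27 in exposed 3, and without hippocampus control 1 it was -0.44. Of 29 tested genes of the list, 20 were lower and 9 higher, with a median of -0.05 against -0.01 over all 13198 genes. Separated arms in both tissues were seen for 3 lower (10.3%) and 0 higher members, against 4.33% and 4.01% of all genes. Those 3 were Xbp1, Hspa5 and Atf6b (-0.24), while Atf6, a sensor of the same response, was at 0.30 (SE 0.15).

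The upstream promoters of Hspa5 and Pdia6 are shown because these 2 had a match to the ER stress element among the named genes whose promoters were looked at. Not every named gene was among those. The element, the site bound by Atf6 with NF-Y, was searched as CCAAT, 9 bases of any kind and CCACG on both strands. The 250 bases before the start site come from RefSeq (GRCm38.p6), and capitals mark the match. Hspa5 lies at chr2:34771840-34772089 and Pdia6 at chr12:17266339-17266588, both on the plus strand.
Hspa5: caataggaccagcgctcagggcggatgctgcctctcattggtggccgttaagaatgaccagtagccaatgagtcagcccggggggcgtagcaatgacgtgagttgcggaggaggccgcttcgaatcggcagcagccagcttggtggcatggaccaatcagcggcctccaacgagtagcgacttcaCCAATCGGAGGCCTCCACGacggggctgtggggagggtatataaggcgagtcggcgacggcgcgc
Pdia6: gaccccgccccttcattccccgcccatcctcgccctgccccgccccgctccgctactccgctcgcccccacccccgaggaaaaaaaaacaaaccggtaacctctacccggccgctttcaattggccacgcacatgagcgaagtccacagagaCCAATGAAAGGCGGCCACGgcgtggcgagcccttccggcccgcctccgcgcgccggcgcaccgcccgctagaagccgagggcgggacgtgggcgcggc
Each holds 1 match, while 37 of 32851 promoters in the table did (0.113%). For genes with separated arms the element was in 0% of promoters of the higher genes. Among the lower genes it was in 1 of 605 promoters (0.165%), that of Hspa5 shown above, against 0.14% for all tested genes. A match is a description of letters and no shown binding site, and the promoter letters do not differ between the arms. Among the promoters of the genes with separated arms, the cAMP response element TGACGTCA was in 2.72% for the higher and 1.65% for the lower genes, against 2.38% for all tested genes. The NR4A element AAAGGTCA was in 0.906% and 0.826% against 0.927%, and the E-box CACGTG in 6.88% and 5.95% against 8.02%. The median GC content of these promoters was 59.2% for the higher and 58.8% for the lower genes, against 59.2% for all tested genes.

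Cytosolic heat shock genes, which encode chaperones induced by damaged proteins, were lower in part. Of 20 tested, 12 were lower and 8 higher (median -0.17 against -0.01 over all genes). With arrays left out, the median ran from -0.26 without exposed 3 in both tissues to -0.06 without control 1 in both tissues. Control 1 had the highest mean level of the list in each tissue, at 10.45 in cortex and 10.75 in hippocampus. The hippocampal arms overlapped in this mean, with 10.45 in control 6 and 10.54 in exposed 3. Lower and separated in both tissues were 5 (25%, against 4.33% of all genes), namely Dnajb1, Hspb1, Bag3, Stip1 and Dnajb4. Dnajb1, a co-chaperone of Hsp70, measured 10.47 and 10.22 in control and 9.50 and 9.32 in exposed cortex, and 9.38 and 9.20 in control and 8.78 and 8.61 in exposed hippocampus. The gap between the arms was wider than the distance between arrays of an arm in both tissues (-0.77, SE 0.17, adjusted p = 0.29). Hspb1, a small heat shock protein, differed by -0.84 (SE 0.23) at low levels, with exposed hippocampus at 4.24 and 3.58 and its mean under the limit. Bag3, which couples chaperones to autophagy, differed by -0.52 (SE 0.20). Hspd1, the mitochondrial chaperonin, differed by -0.48 with overlapping hippocampal arms, and by -0.27 without hippocampus control 1. Hspe1, its partner, lay the other way at 0.40.

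The cholinergic genes, nearest to the target of clothianidin, held no common direction. Of 13 nicotinic subunits listed, 5 passed the filter on low values, and 1 of them, Chrna6, was separated the same way in both tissues. That is 20% upwards and 0% downwards, against 4.01% and 4.33% of all genes, and with 5 members 1 gene sets the share. Chrna6, the alpha-6 subunit known from dopaminergic and visual pathways, measured 4.50 and 4.56 in control and 5.81 and 5.40 in exposed cortex, and 4.88 and 5.15 in control and 5.66 and 5.66 in exposed hippocampus. All 4 exposed arrays lay above all 4 controls (0.86, SE 0.21, adjusted p = 0.29), but at levels not far above the limit of 3.937. Chrna7, the subunit of homomeric receptors, differed by -0.54 (SE 0.24), with overlapping arms in hippocampus. Chrna4 and Chrnb2, which form the main high-affinity receptor of the brain, differed by 0.39 (SE 0.20, and 0.22 without hippocampus control 6) and 0.03 (SE 0.22). Chrna4 lay in opposite ways, at 12.18 and 12.13 in control against 12.04 and 12.09 in exposed cortex and at 9.74 and 9.38 in control against 10.55 and 10.32 in exposed hippocampus. Its cortical gap was narrow. Chrna5 also lay in opposite ways (-0.52 in cortex, where its exposed mean was under the limit, and 0.41 in hippocampus).

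Among 11 tested muscarinic receptor, cholinesterase and receptor accessory genes, 3 were higher and 8 lower (median -0.04), and 1 was separated the same way in both tissues (9.09%, against 4.01% of all genes upwards). That gene was Bche, butyrylcholinesterase, which hydrolyses acetylcholine and other esters. It measured 4.44 and 4.47 in control and 5.28 and 5.12 in exposed cortex, and 4.79 and 4.42 in control and 6.02 and 5.19 in exposed hippocampus. All exposed arrays lay above all controls (0.87, SE 0.23, adjusted p = 0.32). Ache, acetylcholinesterase, the enzyme that ends transmission at cholinergic synapses, had a different pattern. Of its 2 probe sets, the values are of the 1 with the higher mean level. It measured 8.96 and 8.54 in control and 8.30 and 7.49 in exposed cortex, and 8.57 and 7.74 against 8.66 and 7.71 in hippocampus, where the arms overlapped (-0.41, SE 0.30 over both). The value ran from -0.69 without hippocampus exposed 3 to -0.16 without cortex exposed 6. The muscarinic receptor genes Chrm3 and Chrm4 differed by 0.51 (SE 0.21) and 0.36 (SE 0.23), and neither was separated in cortex. Chrm3 differed by 0.33 without hippocampus exposed 6, and Chrm4 by 0.16 without hippocampus control 1.

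Voltage-gated calcium channel genes were higher more often than lower, 12 against 5 of 17 tested, with a median of 0.20 in each of the fit over both tissues and cortex, and 0.32 in hippocampus. Higher and separated in both tissues were 4 (23.5%, against 4.01% of all genes) and lower 0. Differences of the same sign in both tissues were seen for 58.8% of members, near the 57.6% of all genes. The mean log2 level of the list was 10.42 and 10.39 in control and 10.36 and 10.61 in exposed cortex, and 10.23 and 9.99 in control and 10.23 and 10.70 in exposed hippocampus. Exposed 6 was thus the high array in each tissue and exposed 3 was not above both controls in either. Without exposed 6 in both tissues the median was 0.03, and without hippocampus exposed 6 alone 0.04. Cacnb4, an auxiliary beta subunit, measured 14.31 and 14.15 in control and 14.37 and 14.92 in exposed cortex, and 11.68 and 11.41 in control and 12.84 and 12.74 in exposed hippocampus. Its cortical gap was narrow and its hippocampal gap wide (0.83, SE 0.19, adjusted p = 0.29). Cacna1e, the pore of R-type channels, differed by 0.71 (SE 0.23), and by 0.45 without hippocampus exposed 6, where it measured 13.14. Cacna1c, the L-type pore, and Cacna2d3, an alpha-2-delta subunit, differed by 0.49 (SE 0.17) and 0.46 (SE 0.18).

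Glutamate and GABA genes held members on both sides. Of 28 glutamate signalling genes, 20 were higher and 8 lower (median 0.14), with 4 separated upwards (14.3%, against 4.01% of all genes) and 1 downwards (3.57%, against 4.33%). Without exposed 6 in both tissues the median was 0.05. The NMDA receptor subunit genes Grin2b and Grin2a differed by 0.64 (SE 0.20) and 0.55 (SE 0.19) and were highest in hippocampus exposed 6, at 15.05 and 14.33. Without that array they differed by 0.45 and 0.37. Slc1a3, the glial glutamate transporter, differed by 0.42 (0.27 without hippocampus control 1), and Slc17a7, which loads glutamate into vesicles, by -0.26 (SE 0.11). Of 17 GABA genes, 10 were higher and 7 lower (median 0.05), and the receptor subunits went apart. Besides Gabrg1 at 0.97, Gabrb2 was at 0.49 (SE 0.16) and Gabra2 at -0.59 (SE 0.19), with Gabra2 at 10.57 and 10.16 in control and 9.72 and 9.91 in exposed cortex. Gad1, a GABA-synthesising enzyme, was at 0.40 (SE 0.16). The cortical arms of Gabrb2 and of Gad1 overlapped.

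**Figure D5:**
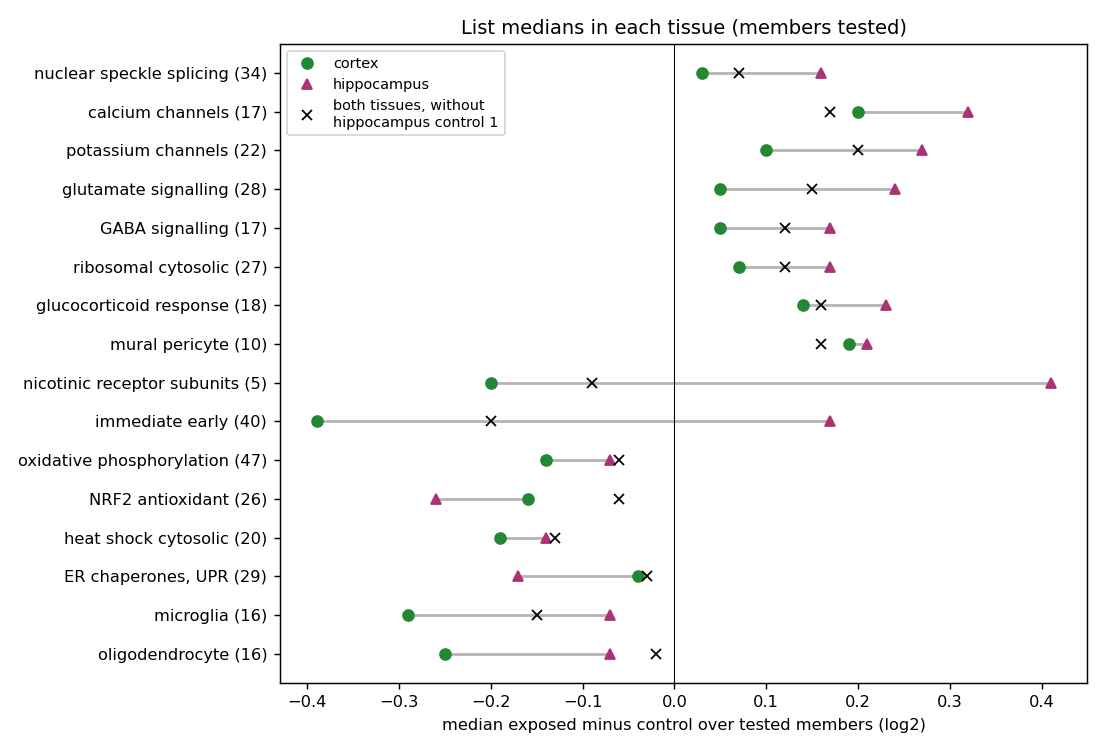
Median exposed minus control difference (log2) of 16 gene lists in cortex (circles) and hippocampus (triangles), with the number of members tested in brackets and crosses for the fit over both tissues without hippocampus control 1. The median of calcium channel genes lay above 0 in both tissues (0.20 and 0.32) and that of cytosolic heat shock genes below it (-0.19 and -0.14), each with members on both sides. Nicotinic subunits and immediate early genes had medians of opposite sign.

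RNA processing and ribosomal genes had more higher than lower members, with unlike exposed arrays. Of 34 nuclear speckle and splicing genes, 22 were higher and 12 lower (median 0.11), and 6 were higher and separated in both tissues (17.6%, against 4.01% of all genes), with 1 lower. Besides Leng8 these were Srsf5, Son, Rbm39, Tia1 and Srrm1, and the lower one was Pnn at -0.29. The list's mean level in cortex was 10.10 in exposed 6 but 9.77 in exposed 3, below the controls at 9.79 and 9.85. Without exposed 6 in both tissues the median was -0.02. Srsf5, a serine and arginine rich splicing factor, measured 10.04 and 9.42 in control and 10.40 and 10.94 in exposed cortex, and 10.27 and 9.59 in control and 10.32 and 10.82 in exposed hippocampus. The hippocampal gap was small beside the distance between its 2 controls (0.79, SE 0.22, adjusted p = 0.34). Son, a scaffold of nuclear speckles, differed by 0.66 (SE 0.19), and Rsrp1 by 0.79 (SE 0.21) with overlapping cortical arms. Of 27 cytosolic ribosomal genes, 20 were higher (median 0.14), and 4 were separated upwards (14.8%, against 4.01% of all genes) and 0 downwards, while 51.9% had the same sign in both tissues against 57.6% of all genes. Here exposed 3 was the high array, with mean levels of 13.13 and 13.57 in control and 13.61 and 13.36 in exposed cortex, and 13.43 and 13.48 in control and 13.92 and 13.41 in exposed hippocampus. The median was -0.10 without exposed 3 in both tissues and -0.03 without hippocampus exposed 3 alone. Rps14 was lowest in the control 1 array of each tissue, at 11.70 and 11.72 against 12.47 to 12.81 elsewhere, with a difference of 0.55 that was 0.36 without cortex control 1.

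Genes that respond to steroids and to activity gave mixed counts. Of 18 glucocorticoid-responsive genes, 12 were higher and 6 lower (median 0.18), with 2 separated upwards (11.1%, against 4.01% of all genes) and 1 downwards (5.56%, against 4.33%). Without exposed 3 in both tissues the median was 0.02. Sgk1, a kinase gene induced by glucocorticoids, measured 9.60 and 10.79 in control and 11.69 and 10.58 in exposed cortex, and 10.66 and 10.53 in control and 11.76 and 11.19 in exposed hippocampus. The exposed 3 array was the highest in each tissue, and the cortical arms overlapped (0.91, SE 0.28, adjusted p = 0.40). Tsc22d3, a further induced target, was likewise highest in exposed 3 of each tissue (0.77, SE 0.25), with overlapping cortical arms. Cdkn1a, a cell cycle inhibitor, differed by -1.20 (SE 0.46), and by -0.68 without hippocampus exposed 6, where it measured 5.39. Its arms overlapped in both tissues. Of 40 immediate early genes, transcribed soon after neuronal firing, 16 were higher and 24 lower, with a median of -0.39 in cortex and 0.17 in hippocampus. An unadjusted p under 0.05 was reached by 7 lower members (17.5%, against 5.08% of all genes) and 2 higher ones (5%, against 4.24%). Among the lower ones Fosb, a subunit of AP-1, was at -0.99 (SE 0.30). It differed by -1.57 in cortex and by -0.41 in hippocampus, where its arms overlapped. Cortex control 1 had the highest mean level of the list in cortex, where the other 3 arrays stood at 9.19 to 9.25, and without it the median over both tissues went from -0.08 to 0.07. The same way in both tissues were separated 2 higher and 2 lower members, 5% each and near the 4.01% and 4.33% of all genes. These were Klf10 and Csrnp1 (0.73, SE 0.21, control hippocampus mean under the limit), and Inhba (-0.67, SE 0.20) and Ptgs2 (-0.53).

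Genes related to Gh and Ptprb lay on both sides. Igf1, the hormone that growth hormone induces in liver, was at 0.57 (SE 0.23, and 0.34 without hippocampus control 6), with hippocampus controls at 8.24 and 7.09 on either side of exposed 3 at 8.13. Insr, the insulin receptor, was at 0.38 (SE 0.16) and separated in both tissues. Igfbp2, a binding protein of these growth factors, was at -0.82 (SE 0.41), and at -0.23 without hippocampus control 1, where it measured 11.47. Its arms overlapped in both tissues. Of 18 endothelial markers, 8 were higher and 10 lower (median -0.04), with 3 separated upwards (16.7%, against 4.01% of all genes) and 1 downwards (5.56%, against 4.33%). Besides Ptprb, the transporters Slco1a4 and Abcb1a were separated upwards (0.61, SE 0.17, and 0.50, SE 0.20), while Cldn5 of tight junctions was separated downwards (-0.44). Bsg, a transporter chaperone, differed by -0.59 (SE 0.19), with overlapping hippocampal arms.

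Oligodendrocyte and microglial markers were lower more often than higher. Of 16 oligodendrocyte markers, 12 were lower and 4 higher (median -0.10, and -0.02 without hippocampus control 1), and 1 was separated in both tissues (6.25%, near the 4.33% of all genes). That gene was Olig2, a lineage transcription factor, which measured 10.12 and 9.34 in control and 9.04 and 8.68 in exposed cortex, and 10.75 and 9.95 in control and 9.26 and 9.73 in exposed hippocampus. Control 1 was the highest array in each tissue (-0.86, SE 0.23, adjusted p = 0.33). Sox10 differed by -0.69 (SE 0.29) with overlapping hippocampal arms. Of 16 microglial markers, 13 were lower and 3 higher (median -0.17, and -0.01 without exposed 6 in both tissues), and 0 were separated in both tissues. Of 10 markers of progenitors and immature neurons, 5 were higher and 5 lower, with 3 separated downwards (30%, against 4.33% of all genes), namely Sox2 (-0.75, SE 0.22), Calb2 (-0.47) and Cd24a (-0.45). Calb2 also marks a class of interneurons, and Dcx of migrating neurons was separated upwards at 0.35. The part of differing cell makeup in these values was not tested.

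The difference between the tissues was tested with the interaction of tissue and arm. It called 3 probe sets when arrays of the same arm and number were taken as a block, and 0 of 14804 without the block (limma, a background of 0%, smallest adjusted p 0.087). In the fit without the block, 511 had an unadjusted p under 0.05. Without hippocampus control 6 it called 30, without hippocampus control 1 it called 1 and with no other single array left out any. Nr4a2, an orphan nuclear receptor gene of the immediate early class, was 1 of 14804 called in cortex alone (0.00675%, adjusted p = 0.037). In cortex 0 were called with quantile normalization, without the trend, or without any 1 of the cortex or exposed hippocampus arrays. It measured 13.40 and 13.00 in control and 11.06 and 11.33 in exposed cortex, and 13.03 and 13.11 in control and 13.53 and 13.13 in exposed hippocampus. The arms were separated downwards in cortex and, by a narrow gap, upwards in hippocampus. The difference between tissues was 2.27 (SE 0.34, limma adjusted p = 0.12), and the value over both tissues, -0.87, averages -2.00 in cortex and 0.26 in hippocampus. For Leng8 the difference between tissues was 0.52 (SE 0.39), for Xbp1 -0.53 (SE 0.33) and for Cyb5r3 0.04 (SE 0.41), each with an adjusted p of 1, which does not show that the tissues acted alike.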

How the data were processed

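GeneChip WT kits were used to amplify and label 250 ng of total RNA with an integrity number above 7.0 for 1-colour Affymetrix arrays, per the labels' protocols. The authors deposited log2 values per probe set, normalized with RMA per the submitters' processing notes. The sources used here do not give the version, the summary level or the log base, and log2 is taken from the range of the values, 1.59 to 19.93. The range does not settle the scale, and the fold differences given rest on that reading. RMA compresses differences of dim probe sets, and no detection value was available. Of 22206 probe sets, 19572 have 1 gene symbol in GEO's platform annotation, 0 several and 2634 none, and all 19572 matched RefSeq's GRCm38.p6 table, used for names only.

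In R 4.3.3, limma 3.58.1 (lmFit, eBayes with a trend) was used to fit tissue plus arm over the 8 arrays, and models with 4 group means gave the effects per tissue and their interaction. The p-values are two-sided and adjusted by the Benjamini-Hochberg method over 14804 probe sets and a threshold of 0.05. The fit was tested on simulated data. Genes were named by rule: called genes first, then up to 15 per direction by size with unadjusted p under 0.01, at least 1.5-fold and arms separated in both tissues, up to 4 per list by p, 7 fixed genes, and 5 per direction for the interaction. Other genes, such as list members with separated arms, were named after their values were seen. The members, the 46 lists and the rule were chosen with earlier results of these data known. Lists used 1 probe set per gene, 13198 in all. Promoters of 10668 of these genes were matched in the RefSeq table. Counts of other splits of the arrays were not made. Alternatives were other filters, quantile normalization, no trend, array weights, a block, means per arm and number, and arrays left out singly or in pairs.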

Additional observations from a re-analysis of the deposited data

Results flagged for a closer look

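The genes below had exposed arrays on opposite sides of the controls in the 2 tissues, every exposed array moving one way in cortex and the other in hippocampus. Such opposite separation was seen for 4.04% of all probe sets tested. The values are the hippocampal minus the cortical exposure difference (log2). The interaction was tested with limma, and none passed with all arrays in the fit without a block (adjusted p = 0.12 for Nr4a2 and 1 for the others). Nr4a2 stood at 2.27, with 2.00 lower in exposed cortex. Among nicotinic subunits Chrna4 stood at 0.96 and Chrna5 at 0.93, the latter with exposed cortex under the limit of 3.937. The cortical gap of Chrna4 was narrow, with a difference of -0.09 (SE 0.23). Tet2, an enzyme that oxidises methylated cytosine, stood at 1.70 (-0.70 in cortex, 0.99 in hippocampus). Coro6, a coronin of the actin cytoskeleton, stood at 1.72, and the vomeronasal receptor gene Vmn2r121 at 1.92. In the other direction were Vmn1r137 at -2.02, the mitochondrial methionine aminopeptidase gene Metap1d at -1.73, Ccdc148 at -1.66 and Nubp1, an iron-sulfur cluster assembly gene, at -1.44. Vmn2r121 and Vmn1r137 each had a group mean under the limit and belong to families of near-identical genes. Among the genes named by the same rule for their interaction, Tshz2 at 2.02 and Stoml3 at -2.19 were not separated in opposite ways.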

How the results depend on the processing

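The fit over both tissues called 0 probe sets with all arrays, 2 with the lowest 50% left out, 1 from the means per arm and number (Ttr, -5.70, adjusted p = 6.4e-06), and 0 to 1 when arrays were left out singly or by arm and number. Ttr was high in hippocampus control 1 (19.51) and cortex control 6 (15.41), 1 array of each control number. Averaging by number thus evened out its controls, and over the 8 arrays its limma adjusted p was 0.48. The single calls without cortex control 6 (2.15) and without control 6 in both tissues (2.25) were TC0200002427.mm.2. Those without hippocampus control 1 and without control 1 in both tissues (-2.76) were Gh, which passed the filter only through its control arrays. Arrays that share an arm and number correlated in their deviations at r = -0.00088 for controls and 0.28 for exposed arrays, with 2 numbers in each arm, and neither these values nor the labels settle whether they share a mouse. With the replicate block the shared fit called 0, cortex 2, hippocampus 1 and the interaction 3 (consensus correlation 0.114). Cortex called 1 with all arrays, 0 with quantile normalization or no trend, 2 with array weights, 3 without the 2 arrays high in Ttr 0 to 2 with 1 array left out and 0 to 3 with an arm and number left out. Hippocampus called 0 with quantile normalization, no trend, array weights or without the Ttr-high arrays, and 0 to 56 with 1 array left out (56 without hippocampus control 6), with 52 without control 6 and 0 without each other arm and number. The interaction called 0 to 30 with 1 array left out, 30 without hippocampus control 6, and 26 and 2 without control 6 or control 1 in both tissues. Same-way separation counted 1870 to 2731 and opposite separation 1119 to 1776 with 1 array left out. Without control 1, control 6, exposed 3 or exposed 6 in both tissues the same-way counts were 3413, 4394, 4691 and 3695, and the opposite ones 2951, 2362, 2315 and 2728. Without the Ttr-high arrays they were 3328 and 3269, and opposite separation counted 948 with no filter. The share of the same sign was 55.2% with no filter, 59.8% with the lowest 50% left out, 58.7% after quantile normalization, 50.4% without the Ttr-high arrays, 51.2% to 59.8% with 1 array left out, and 52.2%, 59.6%, 60.9% and 54.3% without control 1, control 6, exposed 3 or exposed 6 in both tissues. Of 1879 gene values under alternatives 1857 kept sign and side, 4 passed the threshold and 18, of 6 genes, turned sign. Chrnb2 was -0.06 without cortex control 6, -0.09 without hippocampus control 1, -0.12 without hippocampus exposed 6, -0.04 and -0.15 without control 6 or exposed 6 in both tissues and -0.23 without the Ttr-high arrays. Chrna5 was -0.19 to 0.10 with 1 array left out, above 0 without cortex control 1 (0.08) or cortex exposed 3, and 0.02 without control 1 in both tissues. Ache was 0.03 without exposed 6 in both tissues. Fshb was 0.02 with array weights, -0.29 to 0.21 with 1 array left out (0.21 and 0.20 without cortex or hippocampus exposed 3), 0.03 without hippocampus control 6, and 0.04 and 0.54 without control 6 or exposed 3 in both tissues. Ttr was 0.05 and Clic6 0.35 without the Ttr-high arrays. The cause of these shifts was not tested. Of 966 list medians under alternatives, 63 moved. The number of arrays, 2 per group, limits the precision throughout.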

Other observations

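Potassium channel genes, which set the resting potential and the firing of neurons, were higher for 17 and lower for 5 of 22 tested, with a median of 0.21 (0.09 without exposed 6 in both tissues). Higher and separated in both tissues were Kcnb2 (0.51) and Kcnh7 (0.50), and lower was Kcnk1 (-0.43), 9.09% and 4.55% of the list against 4.01% and 4.33% of all genes. Genes of the NRF2 antioxidant response were lower for 21 and higher for 5 of 26 (median -0.15, and -0.06 without hippocampus control 1), with the catalase gene Cat at -0.79 and Gstm1, a glutathione transferase gene, at -0.50, and 1 of them was separated in both tissues (3.85%, below the 4.33% of all genes). Oxidative phosphorylation genes were lower for 33 and higher for 14 of 47 (median -0.10, and 0.04 without exposed 6 in both tissues), and 0 were separated in both tissues. Clock genes gave 12 higher and 9 lower of 21 (median 0.07, and -0.03 without hippocampus exposed 6), with Nr1d2 separated upwards (0.48; 4.76% of the list, near the 4.01% of all genes) and the casein kinase genes Csnk1e (-0.33) and Csnk1d (-0.24) downwards (9.52%, against 4.33%). No member of these lists passed the threshold over all genes.

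The probe set TC0200002427.mm.2, for which no gene name is used here, had the largest difference among probe sets separated in both tissues with a higher exposed level. It measured 8.41 and 9.56 in control and 10.70 and 11.15 in exposed cortex, and 7.57 and 7.72 in control and 9.15 and 9.96 in exposed hippocampus. The difference was 1.93 (SE 0.26, limma adjusted p = 0.059).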
